A study of Mus musculus with 4 samples.

Results

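Wnt signalling in the mouse liver lobule was followed through 10 genes, taken by symbol from the 32285 genes of the count tables: the ligands Wnt2, Wnt9b and Rspo3, the receptor Lgr5, the feedback genes Axin2, Rnf43 and Znrf3, and the target genes Tbx3, Sp5 and Glul. The rule is a list of names that applies no cut-off to a measured value, but the names were chosen with earlier results of these data known. All 10 had a row in the tables. Nuclear RNA was counted in single nuclei of flash-frozen liver. A fasted group, without food for 16 to 24 h, was set against a fed group. Each was a pool of 50 mg of liver from 8 mice, and 2 nuclear preparations per group were run with 10x chemistry version 3.1, giving the libraries fasted 1, fasted 2, fed 1 and fed 2. Strain, sex, age, diet and time of day are not given in the sources used here. By the labels the preparations of a group come from the same number of pooled livers and nothing says they hold different mice, so p-values measure the spread between preparations and not between animals. The series' title names insulin and the spatial pattern of hepatic gene expression as its subject, and the questions addressed here are where in the lobule and in which cells these genes were read, and whether feeding state moved them.

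As background, blood crosses the lobule from the portal tracts to the central vein, and hepatocytes carry out different metabolic tasks along that path. Endothelial cells around the central vein release Wnt ligands, and R-spondins strengthen the signal by binding Lgr receptors and clearing the ubiquitin ligases Rnf43 and Znrf3, which otherwise remove Frizzled receptors from the cell surface. Active signalling stabilises beta-catenin, which acts with TCF/LEF factors on target genes of the hepatocytes nearest the central vein, among them the glutamine synthetase gene Glul.

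After filtering, 10150, 6609, 8819 and 4146 nuclei were used from fasted 1, fasted 2, fed 1 and fed 2. Levels are given as CPM, the UMIs of a gene per 1000000 UMIs of all nuclei of a type in a library. Clusters were named from marker genes, with the 10 genes left out of the clustering, and 6 types had at least 20 nuclei in every library: 18759 hepatocyte-like, 5399 endothelial-like, 1960 Kupffer cell or macrophage-like, 1755 stellate-like, 521 cholangiocyte-like and 430 B or plasma cell-like nuclei (called by the type alone below). Markers set the types apart unequally: all 4 libraries stood above those of every other type for 8 of 9 stellate and 7 of 9 endothelial markers, but for 1 of 8 hepatocyte markers. Hepatocyte marker RNA was in every other type, and in endothelial nuclei the median hepatocyte marker reached 52.8, 50.5, 44.8 and 82.2% of its hepatocyte level in fasted 1, fasted 2, fed 1 and fed 2. The library fed 2 stood apart, with a median of 1280 UMIs per hepatocyte nucleus against 2547.5 to 3240 in the others, and with 154 endothelial and 97 stellate nuclei. In fed 1, a cluster led by the acute-phase genes Saa1 and Saa2 held 1753 of 5060 hepatocyte nuclei. It held 8, 2 and 2 nuclei of fasted 1, fasted 2 and fed 2. Its part in the fasted minus fed values was not tested. Libraries shared 12 to 42 barcodes in pairs.

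**Figure D1:**
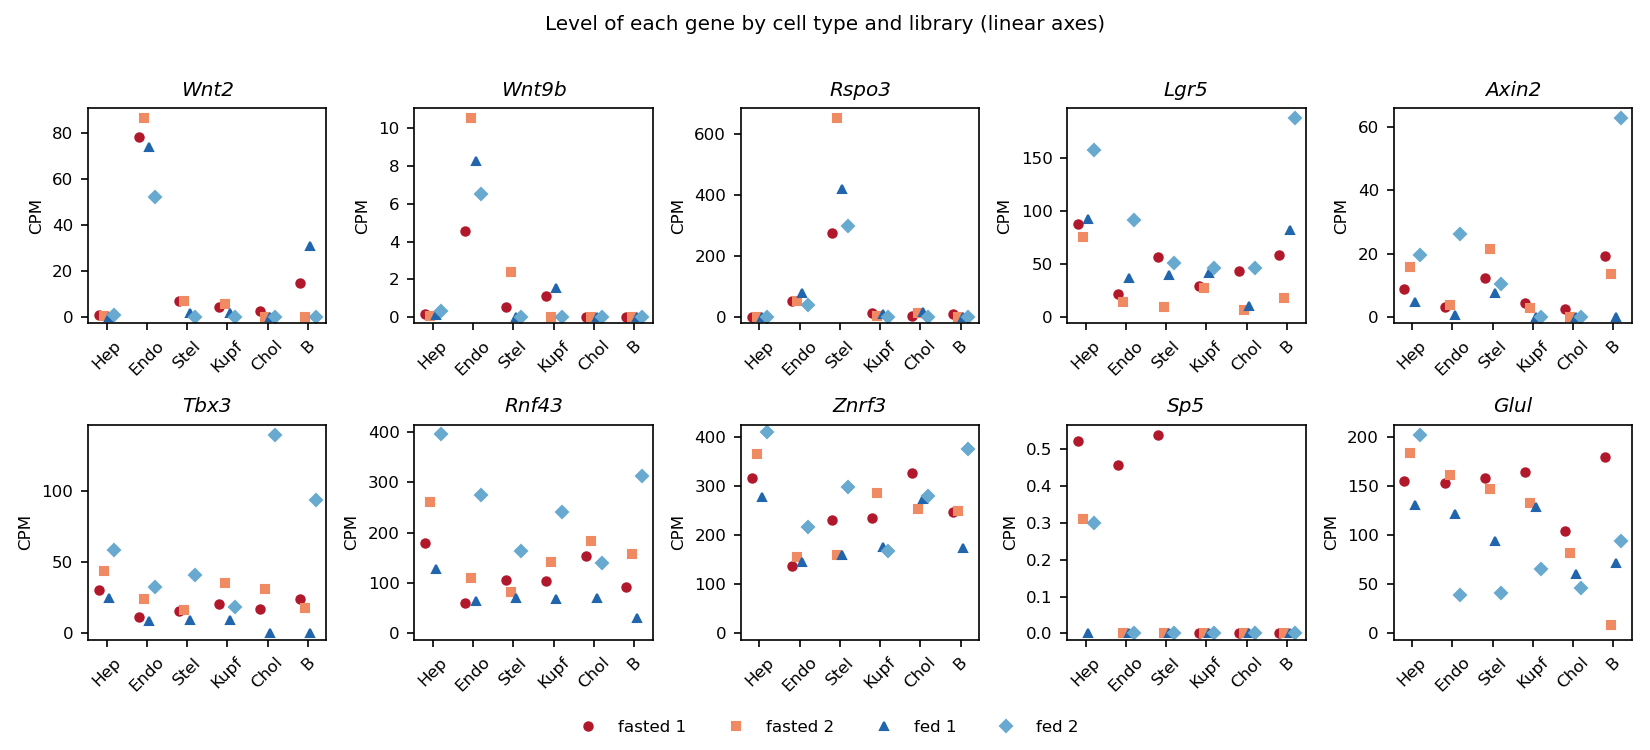
CPM of each gene (linear y axes) in hepatocyte (Hep), endothelial (Endo), stellate (Stel), Kupffer cell or macrophage (Kupf), cholangiocyte (Chol) and B or plasma cell (B) nuclei, 1 point per library. Wnt2 and Wnt9b are highest in endothelial nuclei and Rspo3 in stellate nuclei without overlap, while the 7 other genes have overlapping ranges between their highest type and the next.

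The ligands were read in the cells that line and surround the sinusoids and were close to 0 in hepatocytes. Wnt2, on chr6:17988940-18030585 (GRCm38, minus strand), encodes a secreted Wnt of the liver endothelium. Its level in endothelial nuclei was 78.2, 86.1, 73.9 and 52.2 CPM in fasted 1, fasted 2, fed 1 and fed 2. In hepatocyte nuclei the same libraries gave 1.05, 0.572, 0.179 and 0.751 CPM. Every endothelial library was above every library of the other 5 types, of which B or plasma cell nuclei came next at 11.3 ± 14.7 CPM (SD, n = 4) on 6 UMIs. Wnt9b, a second endothelial Wnt on chr11:103727364-103749821 (minus strand), was scarce: 4.57, 10.5, 8.27 and 6.53 CPM in endothelial nuclei, from 10, 11, 15 and 1 UMIs. Hepatocyte nuclei held 8 Wnt9b UMIs in all, and no other type reached the endothelial range.

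Rspo3, on chr10:29452416-29535867 (minus strand), encodes the R-spondin that strengthens Wnt signals around the central vein. Taken over all nuclei of a type, it was highest in stellate nuclei, the retinoid-storing pericytes of the sinusoid, at 275, 652, 422 and 298 CPM. Endothelial nuclei followed at 52.1, 52.6, 77.2 and 39.2 CPM, and hepatocyte nuclei at 1.00, 0.935, 0.952 and 0.150 CPM. The stellate, endothelial and remaining types did not overlap. After every nucleus was thinned to 500 UMIs, 20.7, 26.8, 18.9 and 10.3% of stellate nuclei held an Rspo3 UMI. The thinned share in hepatocyte nuclei, taken as background, was 0.0741, 0.0658, 0.0593 and 0.0267%. Median depths before thinning were 792 to 1112 UMIs per stellate nucleus and 1280 to 3240 per hepatocyte nucleus.

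Across types, edgeR's quasi-likelihood test with library as a block and Benjamini-Hochberg adjustment over all genes tested put 8 of 9 tested genes past 0.05 between endothelial and hepatocyte nuclei, where 51.1% of all genes tested passed. The 3 ligands were higher in endothelial nuclei, Wnt2 by 6.71 ± 0.32 (log2 fold change ± SE, adjusted p = 1.34e-08), Rspo3 by 5.83 ± 0.29 (6.22e-09) and Wnt9b by 5.54 ± 0.61 (7.88e-06). Lgr5, Axin2, Tbx3, Rnf43 and Znrf3 were lower there, by -1.87, -1.72, -1.40, -1.32 and -1.28. Glul did not pass, at -0.53 ± 0.27 (edgeR adjusted p = 0.161). Over the 9 genes tested the median was -1.28, against -0.17 over all genes. Between stellate and hepatocyte nuclei 5 of 7 tested genes passed, beside 34.7% of all genes. Rspo3 was higher in stellate nuclei by 8.77 ± 0.30 (edgeR adjusted p = 2.37e-13), and Lgr5, Rnf43, Tbx3 and Znrf3 were lower by -1.40, -1.23, -1.22 and -0.87. Between endothelial and stellate nuclei 2 of 7 passed, beside 17.1% of all genes: Wnt2 was higher in endothelial nuclei by 3.80 ± 0.35 (edgeR adjusted p = 4.56e-07) and Rspo3 lower by -2.82 ± 0.23 (1.35e-07). Without a filter on low counts, Wnt9b (2.96, adjusted p = 0.0175) and Axin2 (-1.97, 0.00559) passed there too, making 4.

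Of 84 other genes of the Wnt pathway, listed by role, 42 were tested between endothelial and hepatocyte nuclei, and 13 were higher and 14 lower in endothelial nuclei, 27 in all beside 51.1% of all genes tested. Of 43 tested between stellate and hepatocyte nuclei 9 were higher and 10 lower, beside 34.7% of all genes in either direction. Of 31 tested between endothelial and stellate nuclei 5 were higher and 3 lower, beside 17.1%. Wls, the carrier that Wnt proteins need for secretion, was at 121, 66.0, 119 and 19.6 CPM in endothelial nuclei and 106, 157, 126 and 92.5 CPM in stellate nuclei. In hepatocyte nuclei it was at 1.62, 0.987, 2.68 and 2.25 CPM, below every endothelial and stellate library. The differences were 5.46 ± 0.33 for endothelial and 5.96 ± 0.31 for stellate nuclei (edgeR adjusted p = 7.03e-07 and 9.66e-11). Frzb, a secreted Wnt antagonist, was at 16.2, 19.0, 27.7 and 10.3 CPM in stellate nuclei, 6.64 ± 0.71 above hepatocytes (edgeR adjusted p = 8.17e-07). The Wnt co-receptor Ryk was 2.05 ± 0.21 higher in stellate than in hepatocyte nuclei (edgeR adjusted p = 3.61e-07), and -1.52 ± 0.20 lower in endothelial than in stellate nuclei (3.11e-05). Nkd1, a feedback inhibitor, was 3.67 higher in endothelial and 5.14 higher in stellate than in hepatocyte nuclei. Tcf7l1, a mostly repressive TCF factor, was 1.99 ± 0.12 higher in endothelial than in hepatocyte nuclei (edgeR adjusted p = 6.71e-08). Apc, a scaffold of the complex that destroys beta-catenin, was 0.99 ± 0.11 higher there (1.03e-05), and the beta-catenin cofactor gene Bcl9l was -1.30 ± 0.15 lower (8.55e-06). The targets Slc1a2, Lhpp and Cyp2a5 were lower in endothelial than in hepatocyte nuclei by -1.79, -2.47 and -2.29. Stellate nuclei were lower than hepatocytes in Slc1a2 (-1.28), Cyp2e1 (-1.21) and Dvl1 (-1.18), and higher in Csnk1a1 (0.91). Cyp2e1 was also a marker used to name the hepatocyte clusters, so its difference was favoured by the naming. Endothelial nuclei were above stellate ones in the Frizzled receptors Fzd4 (1.47) and Fzd6 (1.66), in Tcf7l1 (1.32), Apc (0.87) and Ccnd1 (1.62), and below them in Nkd1 (-1.41) and Cyp2a5 (-1.23).

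Of other Wnt genes, Wnt5b was read in hepatocyte nuclei at 65.4, 81.4, 45.9 and 36.8 CPM. Wnt4 was read in cholangiocyte nuclei at 50.6, 94.7, 25.3 and 46.5 CPM and in stellate nuclei at 15.1, 45.1, 23.1 and 0 CPM. In hepatocytes Wnt4 did not exceed 0.833 CPM in any library.

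The receptor, feedback and target genes are described here by their level in hepatocyte nuclei, which held 77.9, 87.3, 82.2 and 94.0% of the UMIs of all genes in named types of fasted 1, fasted 2, fed 1 and fed 2. They held 88.7, 96.9, 91.7 and 97.0% of Lgr5 UMIs and 78.3, 90.8, 84.0 and 98.2% of Glul UMIs, so Glul in fasted 1 was at the share of all genes. Lgr5, the R-spondin receptor on chr10:115450311-115587780 (minus strand), was at 87.9, 75.1, 92.1 and 158 CPM in hepatocyte nuclei of fasted 1, fasted 2, fed 1 and fed 2. Both fed libraries were above both fasted libraries, with fed 2 the highest. In endothelial nuclei Lgr5 was at 21.9, 14.4, 36.4 and 91.4 CPM, which is 25.0, 19.1, 39.5 and 57.9% of the hepatocyte level and below the median hepatocyte marker in each library. Thinned to 500 UMIs, 3.91, 4.06, 3.72 and 5.88% of hepatocyte nuclei held an Lgr5 UMI, against 1.18, 0.626, 1.61 and 4.55% of endothelial nuclei. Median depths before thinning were 767.5 to 886 UMIs per endothelial nucleus. The part of stray hepatocyte RNA in these endothelial values was not tested.

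Rnf43, a ubiquitin ligase that removes Frizzled receptors (chr11:87662722-87735539, plus strand), was at 180, 261, 129 and 395 CPM in hepatocyte nuclei. Znrf3, the related ligase on chr11:5276324-5444847 (minus strand), was at 316, 365, 278 and 410 CPM. Axin2, the feedback scaffold of the beta-catenin destruction complex (chr11:108920349-108950783, plus strand), was at 8.96, 15.7, 4.88 and 19.5 CPM. In all 3 the lowest and the highest library were both fed. Axin2 was also read in stellate nuclei at 12.4, 21.3, 7.70 and 10.3 CPM, and its stellate and hepatocyte ranges overlapped (0.26 ± 0.34, edgeR adjusted p = 0.603).

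Tbx3, a T-box repressor and Wnt target (chr5:119670669-119684724, plus strand), was at 30.5, 43.9, 24.8 and 58.8 CPM in hepatocyte nuclei. Glul, on chr1:153899944-153909723 (plus strand), was at 155, 183, 131 and 202 CPM. For both genes fed 1 was the lowest and fed 2 the highest. Glul in endothelial nuclei was at 153, 161, 121 and 39.2 CPM, or 98.7, 87.9, 92.8 and 19.4% of the hepatocyte level. In fasted 1, fasted 2 and fed 1 that share exceeded the highest hepatocyte marker (83.2, 73.3 and 66.9%), and in fed 2, on 6 UMIs, it was below the lowest (58.6%). Sp5, a zinc-finger target gene on chr2:70474923-70477729 (plus strand), gave 11, 6, 0 and 2 UMIs in hepatocyte nuclei and entered no test after the filter on low counts.

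The 250 bases before the start site were read for the Wnt target genes with an entry in the RefSeq promoter table (GRCm38.p6), to set their letters beside the position results that follow. They were searched on both strands for the TCF/LEF core written CTTTG followed by AT, by TT, by AA or by TA, which 14.8% of 32851 promoters of that length hold in at least 1 form. Capitals mark the matches, which do not overlap. Sp5 (chr2:70474673-70474922), Axin2 (chr11:108920099-108920348), Glul (chr1:153899679-153899928) and the first Rnf43 entry (chr11:87662837-87663086), all on the plus strand, read:
Sp5: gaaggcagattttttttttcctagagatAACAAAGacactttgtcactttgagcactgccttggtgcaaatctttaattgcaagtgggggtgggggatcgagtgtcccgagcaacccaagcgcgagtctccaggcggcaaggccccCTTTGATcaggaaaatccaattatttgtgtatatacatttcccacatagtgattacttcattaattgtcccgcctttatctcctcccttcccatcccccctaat
Axin2: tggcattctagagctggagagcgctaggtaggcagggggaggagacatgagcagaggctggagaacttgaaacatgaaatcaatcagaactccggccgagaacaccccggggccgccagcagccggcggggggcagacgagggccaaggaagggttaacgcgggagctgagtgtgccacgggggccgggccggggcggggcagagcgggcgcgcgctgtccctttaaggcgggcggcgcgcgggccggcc
Glul: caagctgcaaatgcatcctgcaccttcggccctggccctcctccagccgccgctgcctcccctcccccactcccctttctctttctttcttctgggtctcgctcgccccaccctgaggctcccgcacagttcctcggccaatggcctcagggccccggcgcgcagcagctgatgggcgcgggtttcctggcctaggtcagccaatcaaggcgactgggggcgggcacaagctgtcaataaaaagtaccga
Rnf43: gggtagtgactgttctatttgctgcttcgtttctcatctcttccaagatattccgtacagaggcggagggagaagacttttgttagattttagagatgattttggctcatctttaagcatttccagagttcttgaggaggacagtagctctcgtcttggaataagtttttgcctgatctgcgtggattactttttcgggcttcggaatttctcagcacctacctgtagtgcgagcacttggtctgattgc

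Sp5 held 2 matches, CTTTGAT at 104 bases before the start and, on the other strand, AACAAAG at 222 bases. The windows of Axin2, Glul, both Rnf43 entries, Wnt2 and Wnt9b held none. RefSeq start sites can differ from the gene bounds given above. By those bounds both Rnf43 windows lie inside the gene and the Wnt2 window overlaps its gene. Sp5, the gene with both matches, was the gene with the fewest UMIs in hepatocytes apart from Wnt9b, and no measurement was tested against these letters.

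Within hepatocytes, all 6 tested genes rose toward the central vein. Each nucleus with at least 1500 UMIs was thinned to 1500 and scored from 11 central and 10 portal landmark genes, none of them among the 10. Nuclei were split into quintiles within each library. The central landmarks Cyp2e1, Cyp1a2, Slc1a2, Lhpp, Rgn and Cyp2a5 are themselves on the list of Wnt feedback and target genes. The score is therefore not independent of Wnt targets, and a rise of other targets along it is partly built in. Scores from separate parts of the landmark lists correlated at 0.61, 0.64, 0.56 and 0.56 across nuclei in fasted 1, fasted 2, fed 1 and fed 2. Scored were 4805 of 5400, 4220 of 4556, 4337 of 5060 and 1542 of 3743 hepatocyte nuclei in the same order. Position values of fed 2 thus rest on the deeper minority of its hepatocyte nuclei. The portal quintile had medians of 2840, 3122, 2631 and 2218 UMIs and the central quintile 3247, 3471, 3196 and 2364.5.

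**Figure D2:**
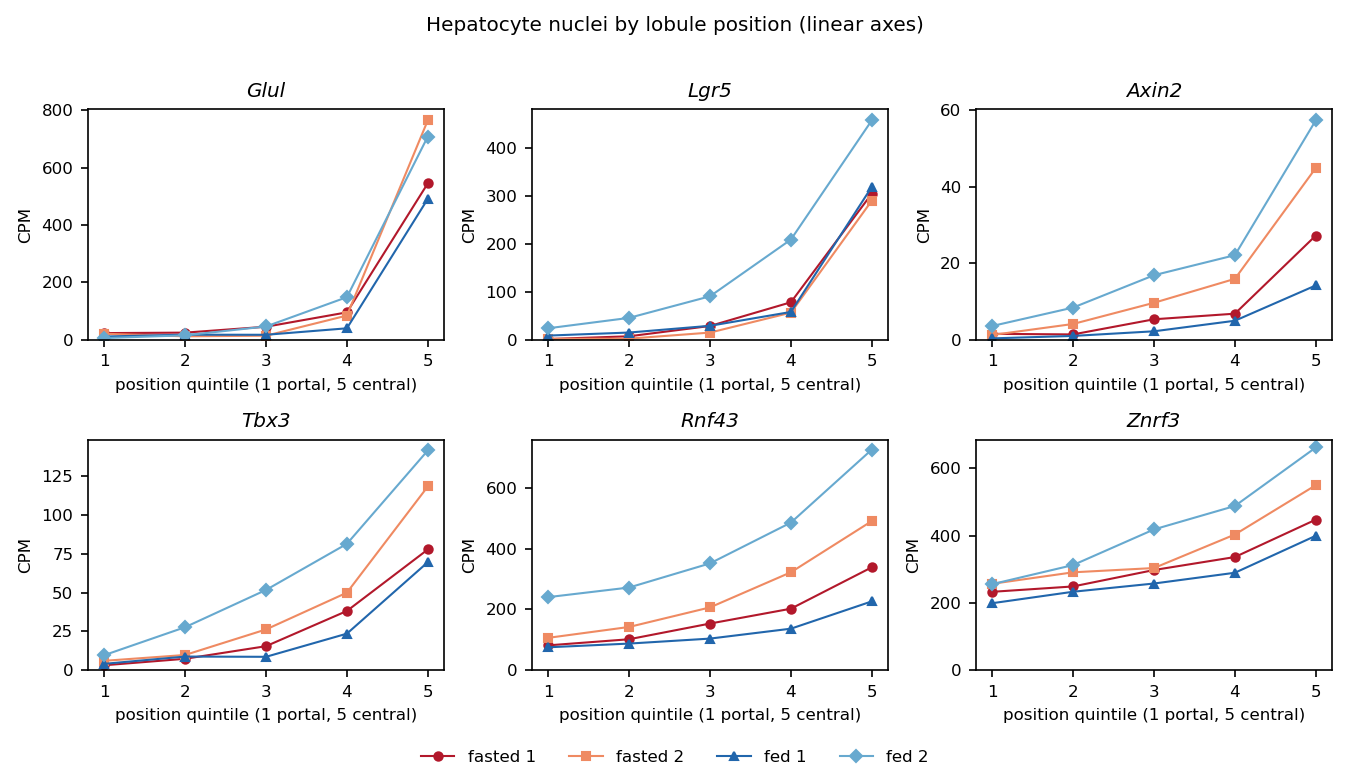
CPM (linear y axes) of 6 genes in hepatocyte nuclei by quintile of the position score, from 1 (portal) to 5 (central), 1 line per library. Glul is concentrated in the central quintile (492 to 766 CPM against 40.1 to 149 in the next), whereas Znrf3 climbs from 199 to 257 CPM at the portal end to 400 to 662 at the central end.

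Glul was concentrated in the central quintile. Its portal quintile was at 23.3, 21.0, 11.3 and 6.0 CPM and its central quintile at 546, 766, 492 and 709 CPM in fasted 1, fasted 2, fed 1 and fed 2. The quintile next to it was at 95.7, 84.6, 40.1 and 149 CPM, so the central quintile held 72.3, 83.5, 85.7 and 74.3% of the Glul UMIs of all quintiles. Lgr5 was at 1.55, 1.88, 8.78 and 24.0 CPM in the portal and 305, 290, 319 and 458 CPM in the central quintile, which held 69.1, 76.0, 74.8 and 52.6% of its UMIs. Axin2 went from 1.55, 1.26, 0.366 and 3.6 CPM to 27.2, 44.9, 14.2 and 57.3 CPM. Its portal values rest on only 5, 4, 1 and 3 UMIs. No portal value overlapped a central one for any of the 3 genes.

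Tbx3 went from 3.1, 5.96, 4.02 and 9.60 CPM in the portal quintile to 77.8, 118, 69.6 and 142 CPM in the central quintile. The ligase genes had shallower profiles. Rnf43 went from 81.4, 106, 75.0 and 240 CPM to 338, 490, 226 and 726 CPM, and in fed 2 its portal quintile lay above the central quintile of fed 1. Znrf3 went from 233, 257, 199 and 256 CPM to 448, 550, 400 and 662 CPM. The central quintile held 33.3 to 37.8% of Rnf43 UMIs and 28.0 to 30.8% of Znrf3 UMIs. Sp5 UMIs were in the central but not the portal quintile of both fasted libraries (7 and 3 UMIs) and at 0 in both end quintiles of the fed libraries.

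By edgeR with library as a block, 6 of 6 tested genes were higher in the central than in the portal quintile, while 8.97% of all genes tested were called higher and 18.3% in either direction. The log2 differences (± SE) were 5.79 ± 0.44 for Lgr5 (edgeR adjusted p = 0.00251), 5.13 ± 0.20 for Glul (4.21e-07), 4.53 ± 0.26 for Axin2 (2.84e-10) and 4.25 ± 0.16 for Tbx3 (3.59e-13). Rnf43 differed by 1.87 ± 0.10 (1.05e-09) and Znrf3 by 1.07 ± 0.08 (4.77e-09). The median over the 6 was 4.39, against -0.01 over all genes. The 4 other genes had too few counts to enter. Summed endothelial markers in hepatocyte nuclei were 51.0, 17.7, 35.4 and 21.1 CPM in the central and 16.5, 5.65, 17.9 and 16.8 CPM in the portal quintile, and were 4476 to 10979.7 CPM in the central-side tercile of endothelial nuclei. Their part in the result was not tested.

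Glul was read more often in nuclei with Lgr5 than in nuclei without it. Of nuclei with an Lgr5 UMI after thinning to 1500 UMIs, 43.1, 52.0, 36.0 and 34.7% also held a Glul UMI, against 9.24, 7.84, 5.77 and 7.89% of those without. All 4 libraries had the higher share among Lgr5-positive nuclei. Clusters 9, 13 and 15, which were made without these genes, carried the highest levels of both genes among hepatocyte clusters, at 410, 476 and 622 CPM of Lgr5 and 1109, 1017 and 1255 CPM of Glul. They were nearly library-specific: cluster 9 held 650 and 491 nuclei of the fasted libraries, cluster 13 held 500 nuclei of fed 1 and cluster 15 held 392 of fed 2.

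Over 20 position bins in each of the 4 libraries (80 sums, which share library, depth and position score), the profile of Lgr5 was most like those of Slc16a10 (Pearson r = 0.93), Tbx3 (0.92) and Cyp2c38 (0.92). Glul was most like Rcan2 (0.92), Znrf3 (0.92) and Gpcpd1 (0.91), Tbx3 like Slc16a10 (0.94) and Rmdn2 (0.93), Rnf43 like Slc16a10 (0.95), Znrf3 like Rmdn2 (0.93) and Axin2 like Gm30117 (0.89). These values describe the bins and carry no test.

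Other genes of the pathway were read along the same axis. Of the feedback and target genes that the score did not use, 4 of 6 tested were higher centrally in edgeR and 5 in DESeq2. Oat (3.16 ± 0.61, edgeR adjusted p = 0.0562) and Ccnd1 (0.11 ± 0.43, 0.924) did not pass in edgeR. Slc13a3, a dicarboxylate transporter, went from 0, 0.942, 0.731 and 0 CPM to 17.6, 31.3, 15.1 and 44.5 CPM (5.41 ± 0.38, edgeR adjusted p = 3.56e-09). Tnfrsf19, a Wnt-induced receptor, rose by 5.01 ± 0.35 (4.23e-09), Nkd1 by 5.54 ± 0.60 (1.42e-06) and the ammonium transporter gene Rhbg by 4.48 ± 0.61 (2.30e-05). Notum, an enzyme that inactivates Wnt ligands, went from 11.5, 4.08, 9.87 and 33.6 CPM to 78.2, 57.7, 73.6 and 96.0 CPM (2.73 ± 0.24, edgeR adjusted p = 1.37e-05). Of 7 receptors, Lrp5 rose (1.30 ± 0.11, edgeR adjusted p = 9.16e-08) and 2 fell in edgeR, while DESeq2 called 1 higher and 1 lower. Among nuclear factors Tcf7l1 ran the other way, from 170, 385, 182 and 274 CPM to 33.2, 51.4, 28.1 and 28.1 CPM (-2.75 ± 0.11, edgeR adjusted p = 1.86e-12), and Bcl9l rose by 0.54 ± 0.09 (1.18e-04). A list for the destruction complex, which also holds Dvl and Tnks genes, leaves out Axin2, whose central rise of 4.53 is given above. Of its 10 tested genes edgeR passed 0, with 0 at an unadjusted p under 0.05, and DESeq2 passed 0. In all, 9 of 33 pathway genes tested were higher centrally and 4 lower in edgeR, beside 8.97% of all genes higher and 9.36% lower. DESeq2 called 10 higher and 3 lower, beside 6.16% and 6.13%.

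In the sum of all hepatocyte nuclei no tested gene of the 10 passed the threshold between feeding states. Wnt9b and Sp5 had too few counts to enter. In edgeR 0 of 8 tested genes passed, beside 0.00715% of all genes (1 of 13990), with 0 of the 8 at an unadjusted p under 0.05, and DESeq2 called 0 of the 8, beside 1.09% of all genes. The Lgr5 difference was -0.67 ± 0.39 (log2 fasted minus fed ± SE, edgeR adjusted p = 0.823). The other values were -0.31 ± 0.59 for Rnf43, -0.22 ± 0.52 for Tbx3, -0.06 ± 0.36 for Znrf3, -0.03 ± 0.74 for Axin2 and -0.03 ± 0.37 for Glul. The ligands were at 0.92 ± 1.01 for Wnt2 and 0.65 ± 0.89 for Rspo3. For Rnf43, Tbx3, Znrf3, Axin2 and Glul both fasted libraries lay between fed 1 and fed 2, and without fed 2 each of the 5 changed sign, to 0.82, 0.63, 0.33, 1.38 and 0.41. The median of the 8 was -0.05, against -0.01 over all genes. Of 49 other pathway genes edgeR passed 0, with 4 at an unadjusted p under 0.05, and DESeq2 passed 1, the cell cycle cyclin gene Ccnd1 (-3.29 ± 0.69, DESeq2 adjusted p = 6.42e-04). The smallest unadjusted p-values in edgeR were those of Ccnd1 (-3.25 ± 0.68, adjusted p = 0.465), Cyp1a2 (-1.81) and Lhpp (1.33).

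**Figure D3:**
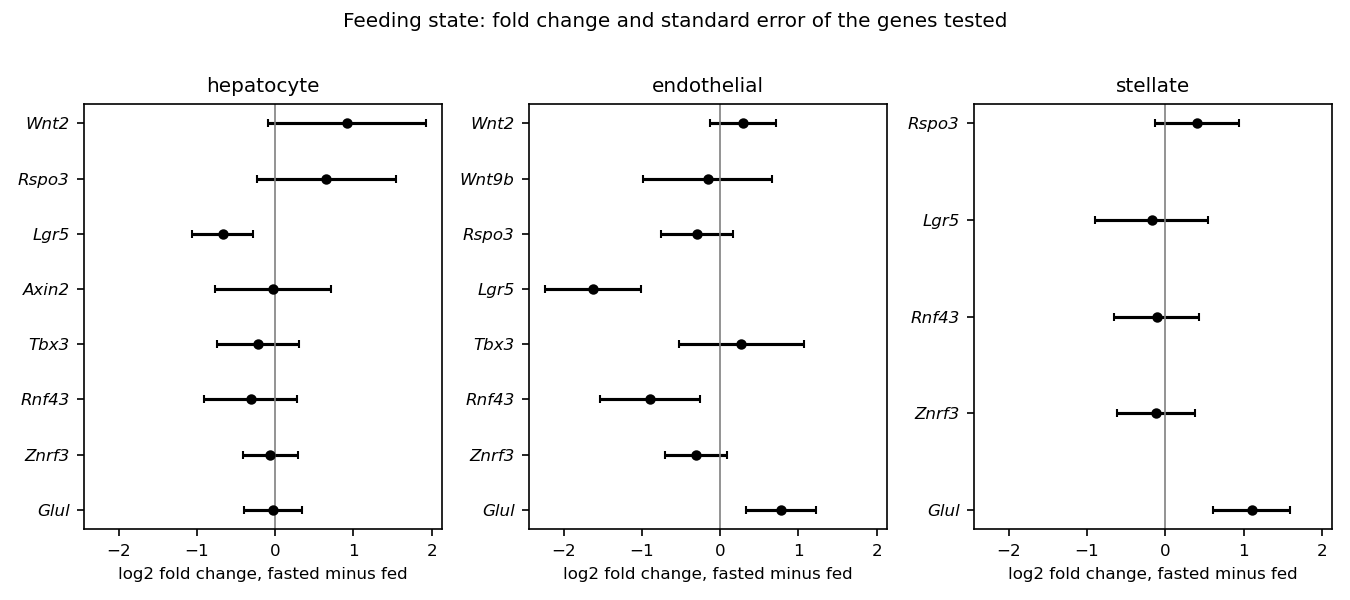
Log2 fold change, fasted minus fed, with its standard error (bars) for the genes tested in hepatocyte, endothelial and stellate nuclei; the vertical line marks 0. No gene passed an adjusted p of 0.05, and the standard errors run from 0.36 for Znrf3 in hepatocytes to 1.01 for Wnt2 in hepatocytes.

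In endothelial nuclei 0 of 8 tested genes passed in edgeR, beside 0.0502% of all genes, with 1 of the 8 at an unadjusted p under 0.05 and 0 called by DESeq2 of the 6 to which it gave an adjusted p, beside 0.356%. The ligands there were at 0.29 ± 0.42 for Wnt2, -0.30 ± 0.46 for Rspo3 and -0.16 ± 0.82 for Wnt9b. Lgr5 was at -1.62 ± 0.61 (edgeR unadjusted p = 0.0213), Rnf43 at -0.90, Znrf3 at -0.31, Tbx3 at 0.27 and Glul at 0.78. Without fed 1, which leaves the 154 endothelial nuclei of fed 2 as the only fed library, Rnf43 (-1.80, adjusted p = 0.00952) and Lgr5 (-2.39, 0.0285) passed. In stellate nuclei 0 of 5 passed in edgeR, beside 0.041% of all genes, with 1 of the 5 at an unadjusted p under 0.05 and 0 called by DESeq2, beside 0.123%. Rspo3 differed by 0.41 ± 0.54 there and Glul by 1.10 ± 0.49 (edgeR unadjusted p = 0.0423). Lgr5, Znrf3 and Rnf43 were at -0.17, -0.12 and -0.11. Of the other pathway genes, edgeR and DESeq2 passed 0 of 33 in endothelial nuclei (2 at an unadjusted p under 0.05 in each; smallest for Rgn, -1.41, Cyp1a2, -2.57, and Ccnd1, -1.19). Both tools passed 0 of 29 in stellate nuclei (1 in edgeR and 0 in DESeq2 at that level; smallest for Lhpp, 1.82, Slc1a2, 0.96, and Rgn, -0.89).

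The steepness of the hepatocyte profile differed between feeding states for Lgr5. Its sum over hepatocyte nuclei, higher in both fed than in both fasted libraries, did not pass (-0.67 ± 0.39). The central to portal ratio of Lgr5 was 196 and 154 in fasted 1 and fasted 2 and 36.3 and 19.1 in fed 1 and fed 2. Their 95% counting intervals were 83.9 to 606, 70.5 to 421, 24.3 to 56.9 and 12.2 to 31.6, so the fasted and fed ranges did not overlap. In the portal quintile 5 and 6 UMIs in the fasted libraries stood against 24 and 20 in the fed ones. The central quintiles of fasted 1, fasted 2 and fed 1 were within 290 to 319 CPM and that of fed 2 was at 458. In the test of the interaction of position and feeding state, Lgr5 differed by 2.59 ± 0.42 (edgeR adjusted p = 8.93e-04), and it was the 1 of 6 tested genes that passed, beside 0.449% of all genes. DESeq2 gave 2.67 (adjusted p = 0.0468), where 0.0352% of all genes passed.

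That call depended on how the deposited tables store zeros. Of the stored entries, 13.3, 13.2, 17.0 and 16.0% had the value 0 in fasted 1, fasted 2, fed 1 and fed 2, and no source used here says what these entries stand for. With each counted as 1, the portal quintile of Lgr5 was at 9.68, 7.57, 16.5 and 34.0 CPM, and the difference was 1.05 (edgeR adjusted p = 0.0740). Lgr5 in endothelial nuclei was at 21.9 and 14.4 CPM in the fasted and 36.4 and 91.4 CPM in the fed libraries, and the part of stray RNA in the portal values was not tested.

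**Figure D4:**
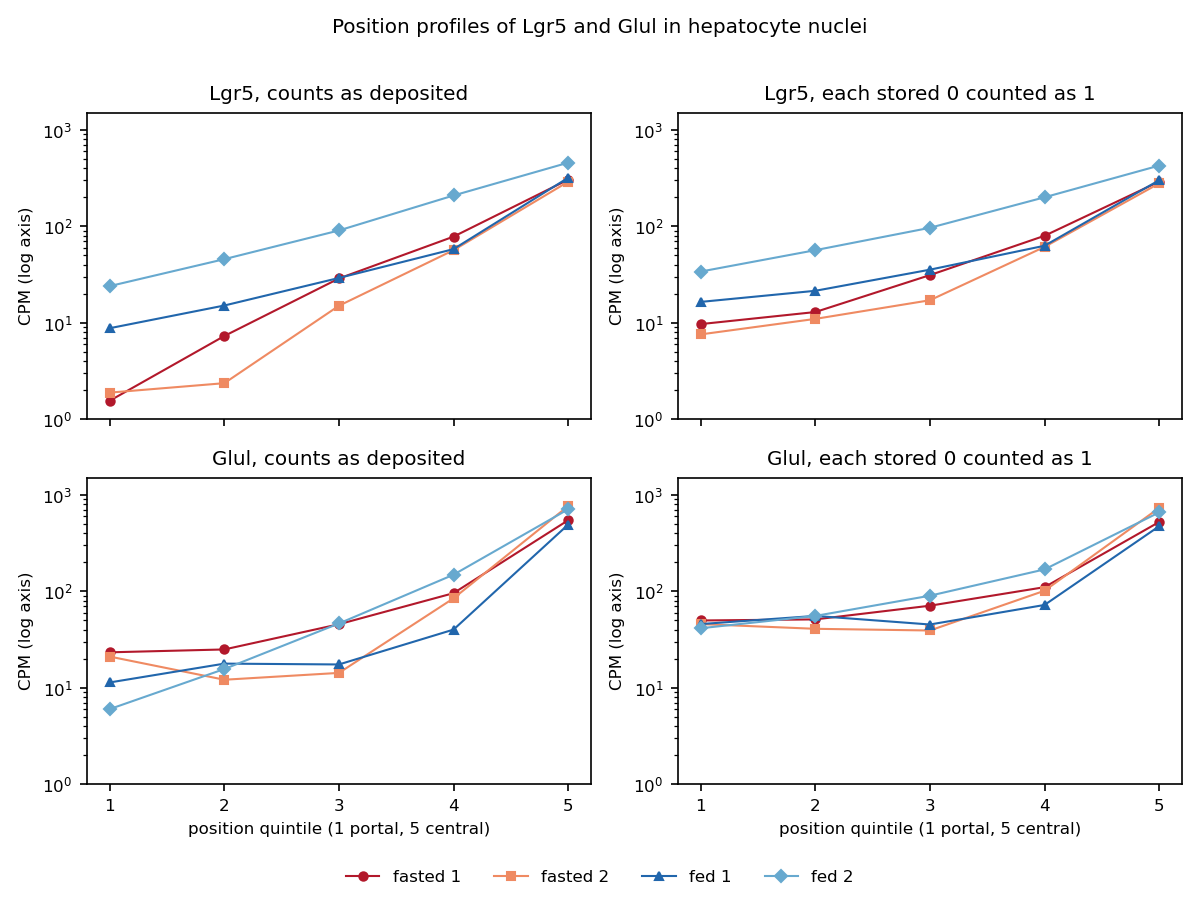
CPM (log y axes) of Lgr5 (top) and Glul (bottom) in hepatocyte nuclei by position quintile, 1 line per library, with the counts as deposited (left) and with each stored 0 counted as 1 (right). At the portal end Lgr5 separates fasted (1.55 and 1.88 CPM) from fed (8.78 and 24.0 CPM) on the left, and the gap narrows on the right.

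Glul ran the other way without passing. Its central to portal ratio was 23.4 and 36.4 in the fasted and 43.4 and 118 in the fed libraries, and the interaction was -0.91 ± 0.32 (edgeR adjusted p = 0.395). With stored zeros counted as 1 it was 0.13. Rnf43 had ratios of 4.16 and 4.62 in the fasted and 3.02 and 3.02 in the fed libraries. Its interaction of 0.53 ± 0.14 did not pass (edgeR adjusted p = 0.106), and with terciles in place of quintiles it was 0.46 and passed (0.0421). Tbx3, Axin2 and Znrf3 were at 0.41, 0.24 and -0.15. Of 37 other pathway genes edgeR passed 0, with 3 at an unadjusted p under 0.05 (Bcl9, -0.74, Dvl1, -0.49, and Ctnnb1, the beta-catenin gene, 0.50), and DESeq2 passed 0.

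Among endothelial nuclei, Rspo3 and Wnt2 were higher on the central side. Nuclei were thinned to 500 UMIs, scored from 4 central-side and 5 portal-side genes and split into terciles. The score was weak, since scores from its parts correlated at 0.09 to 0.19 across nuclei. Rspo3 was at 33.5, 22.2, 33.6 and 0 CPM in the portal-side tercile and 85.1, 127, 169 and 98.6 CPM in the central-side tercile of fasted 1, fasted 2, fed 1 and fed 2. Wnt2 was at 59.8, 63.7, 38.6 and 21.5 CPM and 95.9, 123, 111 and 78.9 CPM. In each library both genes were higher on the central side, and the 2 sides did not overlap for either gene; the fed 2 values rest on 0 and 5 Rspo3 and 1 and 4 Wnt2 UMIs.

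**Figure D5:**
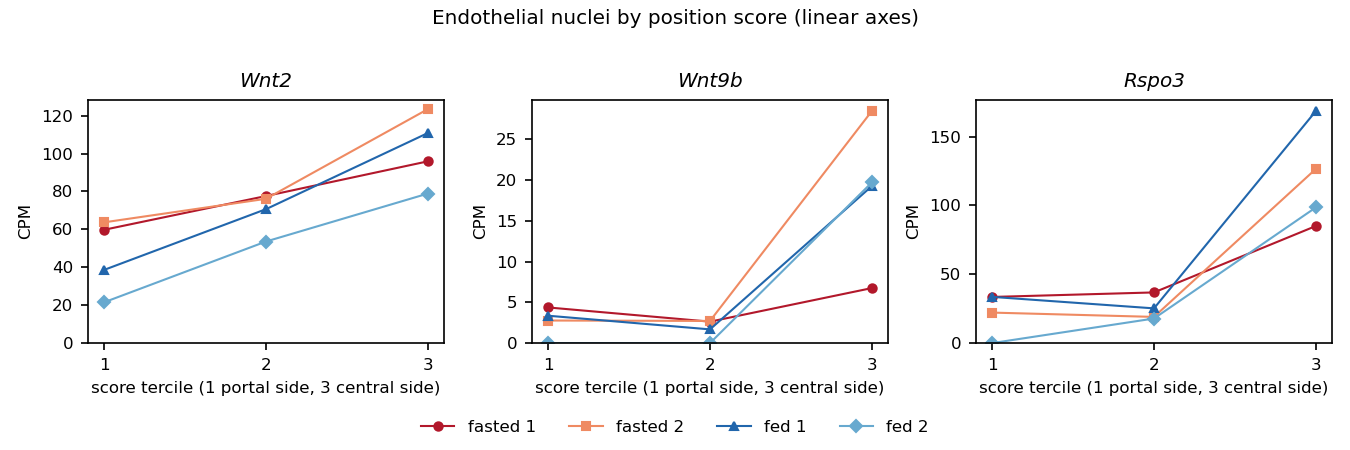
CPM (linear y axes) of the 3 ligands in endothelial nuclei by tercile of the position score, from 1 (portal side) to 3 (central side), 1 line per library. Rspo3 is low in terciles 1 and 2 (0 to 36.8 CPM) and at 85.1 to 169 CPM in tercile 3, while Wnt2 climbs through all 3.

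In edgeR with library as a block, 2 of 6 tested genes passed, beside 1.43% of all genes: Rspo3 by 2.03 ± 0.23 (adjusted p = 4.76e-16) and Wnt2 by 1.04 ± 0.21 (1.44e-04). The Wnt2 call was lost in DESeq2 (1.08, adjusted p = 0.110) and without fed 1 (0.82, edgeR adjusted p = 0.144). Wnt9b entered no test after the filter. Its UMIs were 3, 1, 2 and 0 on the portal side and 5, 9, 12 and 1 on the central side, and without the filter it differed by 2.09 ± 0.63 (edgeR adjusted p = 0.154). Summed stellate markers were 223, 122, 168 and 151 CPM in the portal-side and 186, 168, 186 and 98.6 CPM in the central-side tercile. They were higher centrally in 2 of 4 libraries. Their part in the Rspo3 difference was not tested. Of 27 other pathway genes edgeR and DESeq2 passed 0, with 0 at an unadjusted p under 0.05 in either (smallest for Lrp5, 0.30, Fzd4, -0.53, and Rgn, -0.34).

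A small endothelial cluster of 262 nuclei, led by Mecom, Thsd7a, Nrg1, Vwf and the portal-side score gene Adgrg6, held Rspo3 at 474 CPM and Wnt9b at 25.4 CPM, against 40.9 and 6.25 CPM in the main endothelial cluster of 5137 nuclei. Its Rspo3 was 437, 397 and 557 CPM in fasted 1, fasted 2 and fed 1, and fed 2 gave only 7 of its nuclei. Stellate nuclei were at 275, 652 and 422 CPM in the same libraries. The small cluster was thus above them in fasted 1 and fed 1 and below them in fasted 2. Wnt2 was at 80.5 CPM in the small cluster and 77.4 CPM in the main cluster. Since clusters were drawn from the nuclei's own expression, these values are a description.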

How the data were processed

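Per the submitters' processing notes, reads were processed with Cell Ranger 6.0 against mm10; filters and the origin of stored zeros are not given in the sources used here. The deposited matrices hold UMI counts per gene and nucleus (13.2 to 17.0% of stored entries are 0), used as deposited. The 10 genes, the pathway lists and the landmark lists were chosen with earlier results of these data known.

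Barcodes under 500 genes or above 5% mitochondrial counts were dropped. Scrublet's automatic threshold called 2011, 0, 1 and 1 barcodes, so it had not worked in 3 libraries, and instead the highest-scoring 1108, 450, 758 and 233 were removed, a rank rule taken from an earlier analysis of these data. Clustering used scanpy 1.11.5 and leidenalg 0.10.2 (2000 variable genes without the 10, 30 components, resolution 1), giving clusters named from at least 3 detected markers. UMI counts were summed per library and type or position bin, the library being the replicate. edgeR 4.0.16 (quasi-likelihood, TMM, filterByExpr, Benjamini-Hochberg over all genes tested, threshold 0.05) gave the main tests and DESeq2 1.42.0 the alternative, and the scripts were tested on simulated data. SEs were derived from the F statistic. Intervals cover counting error only. Total UMIs per library were 30955600, 24139311, 22924339 and 8078755, so fed 2 is the least precise.

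All 10 genes are named. Other pathway genes are named where they pass, up to 8 per comparison by smallest p, or otherwise the 3 smallest; genes of the position score are left out of position results. Gene coordinates are from GENCODE M21 (GRCm38, the build called mm10). Alternatives were other scaling and filters, leaving out each library, more doublets removed, stored zeros as 1, other bins and scoring depths, leaving out nuclei rich in hepatocyte RNA and, added after seeing the data, sums of thinned counts.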

Additional observations from a re-analysis of the deposited data

Results flagged for a closer look

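The central minus portal difference of Lgr5 in hepatocyte nuclei was 2.59 ± 0.42 larger (log2, SE) in the fasted than in the fed libraries by the test of the interaction (edgeR adjusted p = 8.93e-04). The ratios were 196 and 154 against 36.3 and 19.1. It was flagged because 2 groups differed under the same contrast. Over 12 alternatives it ran from 1.05 to 3.20, positive in all 12 and past 0.05 in 11, and the exception counted each stored 0 as 1 (adjusted p = 0.0740). The portal values rest on 5, 6, 24 and 20 UMIs.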

How the results depend on the processing

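The 6 central minus portal calls in hepatocytes were kept in all 12 alternatives run, and every called difference between types in the 10 run for it. Uncalled Glul passed below hepatocytes in 1 of 10 alternatives for endothelial and 4 of 10 for stellate nuclei. Where a library left out leaves 1 in a group, that library is assumed to vary like the others. The number of genes called moved in these cases: in the hepatocyte interaction to 0 with stored zeros as 1 and to 2 with terciles; in endothelial position to 1 in DESeq2 and to between 1 and 2 when leaving out a library; in endothelial fasted minus fed to between 0 and 2 when leaving out a library; and in endothelial minus stellate to 4 without the filter. Changes that were small beside the number called are left out of these cases. In stellate minus hepatocyte, Wnt2 was not tested in the main run and passed in all 3 alternatives that tested it. In endothelial minus stellate, Axin2 passed in 2 of the 3 alternatives that tested it and Glul in 1 of 10. No called difference changed sign, and 49 settings changed the sign of an uncalled one. The replicate block left 0 genes of the 10 called in hepatocytes, endothelial and stellate nuclei, and moved all genes called from 1, 5 and 3 to 185, 26 and 7. Across genes, deviations of fasted 1 and of fed 1 from their group means correlated at 0.43, 0.38 and 0.20 in these types. With 2 pairs these values cannot settle whether a number marks a shared batch, and the labels name none.

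Leaving out 1 library, fasted minus fed ran in hepatocytes from -0.75 to 1.38 for Axin2, -0.75 to 0.63 for Tbx3, -0.93 to 0.82 for Rnf43, -0.36 to 0.33 for Znrf3 and -0.35 to 0.41 for Glul. In endothelial nuclei it ran from -0.78 to 0.41 for Wnt9b, -0.54 to 0.32 for Rspo3, -1.03 to 0.97 for Tbx3, -1.80 to 0.44 for Rnf43 and -0.67 to 0.021 for Znrf3. In stellate nuclei it ran from -0.32 to 0.86 for Rspo3, -2.13 to 0.48 for Lgr5, -0.81 to 0.57 for Rnf43 and -0.63 to 0.43 for Znrf3. The Axin2 interaction ran from -0.56 to 0.72, Znrf3 in endothelial position from -0.11 to 0.081, and endothelial minus stellate from -0.68 to 0.13 for Lgr5, -0.34 to 0.054 for Tbx3, -0.31 to 0.17 for Rnf43 and -0.080 to 0.14 for Glul.

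Other sign changes in hepatocyte fasted minus fed were Wnt2 (-0.083) and Rspo3 (-0.16) with stored zeros as 1, and Axin2 (0.041, 0.23) and Glul (0.037, 0.016) without the filter and with the replicate block. In the interaction they were Glul (0.13) with stored zeros as 1 and Znrf3 (0.13) with thinned sums. In endothelial position, scoring at 800 UMIs gave -0.070 for Lgr5, 0.058 for Rnf43 and -0.13 for Znrf3, which was also at -0.046 in DESeq2, -0.069 with stored zeros as 1, -0.11 with quintiles and -0.27 with thinned sums. In endothelial minus stellate, Lgr5 (0.20, 0.17) and Rnf43 (0.21, 0.29) changed with more doublets removed and without nuclei rich in hepatocyte RNA. The causes were not tested.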
